A study of Mus musculus with 4 samples.

Results

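The genes of oxidative phosphorylation, those of the nucleus and those of the mitochondrial genome, were followed through single cells of mouse lungs that carried HKP1 tumours. Members were chosen by name: every column beginning with mt-, and every column beginning with Ndufa, Ndufb, Ndufc, Ndufs or Ndufv, Cox4 to Cox8, Uqcr, Sdha to Sdhd, or Atp5, without the pseudogene names in -ps, of which 7 were left out. This gave 118 of 20640 gene columns. The rule uses names alone, but it was set with earlier results of these data known. There were 98 nuclear members, by name 86 subunits (41 of complex I, 4 of complex II, 8 of complex III, 16 of complex IV and 17 of complex V) and 12 assembly factors (8 Ndufaf and 4 Sdhaf genes). Complexes follow the gene names alone, and a product may belong elsewhere. Ndufa4 and Ndufa4l2 thus count under complex I, and Cox7a2l under complex IV. The 20 mitochondrial members were 10 mRNAs (7 of complex I, 1 of complex III and 2 of complex IV), 2 ribosomal RNAs and 8 transfer RNAs. The 2 of complex IV were mt-Co1 and mt-Co3. The mitochondrially encoded subunits of complex V were not analysed here. Sums and balances of the mitochondrial mRNAs cover these 10 alone and not every message of the mitochondrial genome. Every member had at least 1 count in each library, but 5 transfer RNAs had fewer than 100 counts over all 4 libraries (mt-Tv 20, mt-Tc 46, mt-Tn 55, mt-Tt 71 and mt-Tm 88). mt-Co3 was close to absent, with 8 and 10 counts in the largest class. Why it was so low was not tested, and the mitochondrial part of complex IV rests almost wholly on mt-Co1.

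The tumour cells, HKP1, are a line of lung adenocarcinoma from mouse in which Trp53, coding for the tumour suppressor p53, is missing. All mice were female C57BL/6, 8 weeks old, and all received 150000 HKP1 cells through the tail vein. Groups were balanced by bioluminescence on day 6. Mice were then mock-treated (0 Gy) or irradiated with 4 Gy on each of 3 days, day 10 to day 12, and lungs were taken 24 to 48 h after the last of these. Cells of 4 mice per treatment, stained live by DAPI exclusion, were sorted into CD45-negative cells (endothelium, epithelium, stroma, tumour) and CD45-positive cells (leukocytes) for 10x Genomics 3′ sequencing. There was thus 1 library for each dose and sort, of pooled animals, with no replicate. No test, standard error or p-value is given, every comparison is between libraries and not between conditions, and all intervals (95%) cover counting error only.

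Oxidative phosphorylation makes ATP in the inner mitochondrial membrane. Complexes I and II pass electrons from NADH and succinate to ubiquinone, complexes III and IV hand them over cytochrome c to oxygen, and the proton gradient built on the way drives ATP synthase, complex V. Complex II is coded by the nucleus alone, while the others are built from subunits of both genomes. The mitochondrial mRNAs come from long transcripts of the circular genome that are cut apart at the transfer RNAs, so their amounts depend on processing and decay as well as on transcription.

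The transcript on which the mitochondrial results turn most is mt-Nd4l, which codes for a small membrane subunit of complex I. It lies at chrM:9877-10173 on the plus strand of the GRCm38 mitochondrial genome, is 297 bases long in GENCODE M21, and its last 7 bases, in capitals here, are also the first bases of mt-Nd4, with which it is transcribed as 1 message.
mt-Nd4l: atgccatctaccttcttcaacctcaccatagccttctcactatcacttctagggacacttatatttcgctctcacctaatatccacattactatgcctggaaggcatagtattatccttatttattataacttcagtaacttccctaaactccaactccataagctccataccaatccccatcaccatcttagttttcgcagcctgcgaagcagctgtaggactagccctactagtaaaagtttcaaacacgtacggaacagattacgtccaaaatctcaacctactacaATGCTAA
It holds 0 runs of 5 or more A, against 6 such runs in mt-Nd2, 7 in mt-Nd5, 5 in mt-Nd4, 2 in mt-Nd3 and 1 each in mt-Nd1, mt-Cytb, mt-Co1 and mt-Co3. mt-Nd6, on the opposite strand, also holds 0. Runs of A are named because the libraries were primed on poly(A), and nothing was tested on them.

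Among the nuclear members, promoters of 77 genes were found in the RefSeq table (GRCm38.p6, 250 bases before to 50 after the start, both strands searched). The motif CGCNTGCGC of nuclear respiratory factor 1 (NRF1), a regulator known for nuclear genes of the respiratory chain, was present in 24 of these 77 genes (31.2%), and in 1901 of all 27025 genes (7.03%). The YY1 motif AAGATGGCG stood in 10.4% of member genes and 1.64% of all genes, the ETS motif CCGGAAGT in 6.49% and 4.31%, and the ERR motif TCAAGGTCA in 2.60% and 0.466%. A match is a description of letters and not a bound site. Promoters of 2 subunits of complex V whose ratios lay on opposite sides of 1 in B-cell-like and T-cell-like cells are shown with their NRF1 matches in capitals. They were picked after their values were seen.
Atp5k promoter, chr5:108434350-108434649, minus strand: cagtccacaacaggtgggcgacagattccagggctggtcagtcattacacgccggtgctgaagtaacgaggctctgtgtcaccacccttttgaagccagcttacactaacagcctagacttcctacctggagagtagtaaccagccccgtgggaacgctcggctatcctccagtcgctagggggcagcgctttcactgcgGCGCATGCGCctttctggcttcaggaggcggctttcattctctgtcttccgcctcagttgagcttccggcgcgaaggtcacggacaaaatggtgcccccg
Atp5o promoter, chr16:91931581-91931880, minus strand: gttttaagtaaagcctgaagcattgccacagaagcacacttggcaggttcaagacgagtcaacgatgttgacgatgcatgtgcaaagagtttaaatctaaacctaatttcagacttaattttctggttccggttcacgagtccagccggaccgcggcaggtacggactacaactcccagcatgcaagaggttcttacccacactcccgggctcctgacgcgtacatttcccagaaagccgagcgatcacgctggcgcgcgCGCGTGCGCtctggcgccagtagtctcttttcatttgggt

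Molecules were counted by unique molecular identifiers (UMIs). The CD45-negative cells had 14885765 of them at 0 Gy and 12448164 at 4 Gy, the CD45-positive cells 24045901 and 36423571. After removal of doublets 5693, 4164, 5180 and 9000 cells were kept in that order, and library pairs shared 3 to 17 barcodes. Cells were assigned by distinct marker genes, none of them a member, and each class carried its own markers among its 10 leading genes, though the tumour-epithelial-like class had only Cdkn2a there, behind Lgals4, Onecut2 and Vsig1. Classes of at least 50 cells at both doses were compared, except a class of other mononuclear phagocytes that no list of its own defines: 2 CD45-negative (4631 and 3455 endothelial-like cells, 532 and 394 aerocyte-like cells, the capillary cells of gas exchange) and 8 CD45-positive (among them 2216 and 3295 B-cell-like and 1162 and 2148 T-cell-like cells). Club-like cells, named in the series title, numbered 0. Ungated cells made up 3.27% to 10.2% of a library. Levels are the UMIs of a gene scaled to 1000000 UMIs of the class (CPM). A UMI counts a molecule and is not scaled to gene length.

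At 0 Gy the nuclear members together took 31124 CPM (interval 30628 to 31626) in the 78 tumour-epithelial-like cells, the highest level of any class at this dose, and 24617 CPM (24190 to 25049) in the 30 mesothelial-like cells. Neutrophil-like cells were lowest with 10058 CPM (9835 to 10284), below B-cell-like cells with 12667 CPM (12585 to 12749). The mitochondrial mRNAs were ordered otherwise. B-cell-like cells held 18356 CPM of them and plasmacytoid-dendritic-like cells 19545 CPM, while tumour-epithelial-like cells held 7772 CPM and neutrophil-like cells 5906 CPM. A nuclear member UMI was accompanied by 1.45 mitochondrial mRNA UMIs in B-cell-like cells and by 0.59 in endothelial-like cells. Sorts are separate libraries, so an order of classes across sorts carries the difference between libraries, which for the mitochondrial mRNAs was large.

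**Figure D1:**
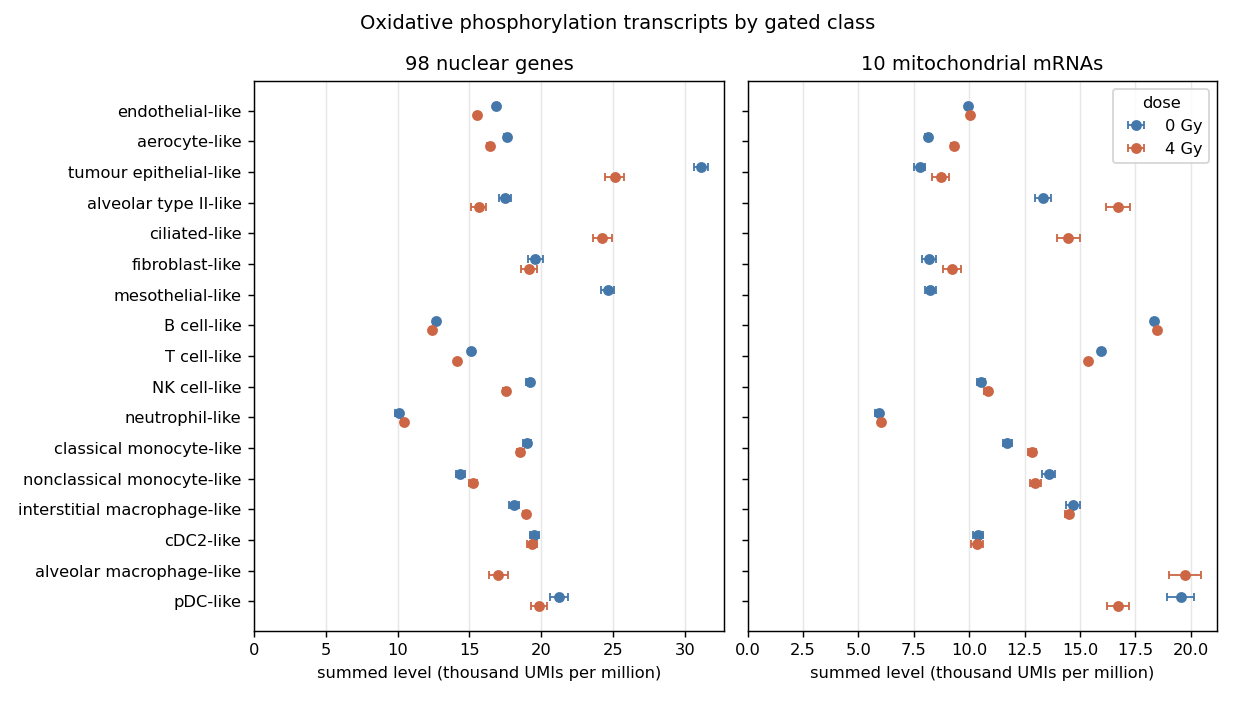
Summed levels of the 98 nuclear members (left) and the 10 mitochondrial mRNAs (right) in units of 1000 CPM, at 0 Gy (blue) and 4 Gy (orange), with 95% Poisson intervals of counting error. Tumour-epithelial-like cells are highest in the left panel and neutrophil-like cells lowest in both.

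In endothelial-like cells the nuclear members were lower at 4 Gy, and by a small amount. Their sum was 16826 CPM at 0 Gy and 15534 CPM at 4 Gy, a ratio of 0.923 (0.916 to 0.930). Of 90 members measured (at least 100 UMIs over both libraries), 72 had a ratio below 1, while 43.3% of the 10731 genes measured did. The median log2 ratio was -0.11 for the members and 0.04 for all genes measured. The 8 members not measured were Atp5g2, Cox4i2, Cox6a2, Cox6b2, Cox7a1, Ndufa4l2, Ndufaf5 and Ndufs6b. A set fold (a ratio of at most 0.8, or at least its inverse) was passed by 1 member upward and 4 downward, where 14.6% of all genes measured passed it upward and 8.56% downward. The shares of the members, so read, were below the background, and the shift lay in many small differences of the same sign. The background was not matched to the members by number of UMIs, and what this adds to the lower shares was not tested.

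By complex, the summed nuclear subunits of endothelial-like cells stood at a ratio of 0.884 (0.871 to 0.898) for complex V, 0.908 (0.887 to 0.929) for complex III, 0.929 (0.918 to 0.940) for complex I, 0.937 (0.895 to 0.981) for complex II and 0.955 (0.940 to 0.970) for complex IV. All 8 Uqcr subunits of complex III and 15 of 16 measured subunits of complex V were below 1. Cyc1 is outside the rule, stands in the list of electron carriers, and is not among the 8. The assembly factors were at 0.969 (0.926 to 1.015). Among single genes, Ndufaf6, an assembly factor of complex I, went from 17.5 to 11.5 CPM (ratio 0.659, 0.503 to 0.858). Ndufs3, a core subunit of complex I, went from 16.4 to 10.9 CPM (0.664, 0.503 to 0.872). Both rest on 250 UMIs or fewer and were the 2 lowest. The subunits of ATP synthase Atp5e and Atp5k rest on more: Atp5e stood at 471 and 374 CPM (0.795, 0.758 to 0.833), and Atp5k at 188 and 149 CPM (0.789, 0.732 to 0.850). Ndufv3 (0.809) and Atp5md (0.812) lay just inside the fold. Upward, Atp5l was at 13.7 and 19.6 CPM (1.43, 1.12 to 1.82), followed by Ndufb6 at 1.21, Sdhaf1 at 1.19, Ndufab1 at 1.16, Ndufs1 at 1.11 and Sdha, the flavoprotein of complex II, at 1.10, which did not pass it. Exons of Ndufb6 and Sdhaf1 overlap genes on the other strand over 39.0% and 69.6% of their length, and no source used here says whether reads were counted by strand.

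Other values of the same cells were recorded as well. Of 13 measured genes of a dissociation and stress list, 8 (Fos, Jun, Junb, Jund, Egr1, Hspa1a, Hspa1b and Dnajb1) were past the fold upward, and the list's sum stood at a ratio of 1.37. Of 6 measured markers of free RNA from other cells, 5 were past the fold downward and 1 upward (sum 2027 and 1391 CPM). Of all genes measured, 14.6% were past it upward and 8.56% downward. Endothelial-like cells with a Lyve1 UMI made up 2416 of 4631 cells at 0 Gy and 2670 of 3455 at 4 Gy. The ratio of the nuclear members was 0.920 within cells with a Lyve1 UMI and 0.936 within those without. The part of stress genes and of free RNA in the result was not tested.

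Aerocyte-like cells had a nuclear sum of 17610 CPM at 0 Gy and 16450 CPM at 4 Gy, a ratio of 0.934 (0.919 to 0.950). Of 82 measured members 61 were below 1 (48.5% of all genes measured). Past the fold were 1 upward and 10 downward, beside 17.3% and 11.8% of all genes measured. The lowest were Sdhb, the iron-sulfur subunit of complex II (273 and 191 CPM, ratio 0.700, 0.604 to 0.810), and Cox5a of complex IV (190 and 134 CPM, 0.703, 0.588 to 0.838). Ndufv3 (0.743), Sdhaf4 (0.747), Ndufaf7 (0.749) and Ndufa3 (0.754) followed. Ndufa6, an accessory subunit of complex I, was the one past the fold upward, with 151 and 192 CPM (1.27). Below it came Ndufa10 and Ndufs1 (1.24 each), Sdhaf1 (1.17) and Ndufab1 (1.11). By complex the ratios ran from 0.860 for complex II to 0.964 for complex IV. Both CD45-negative classes come from the same libraries, so that their likeness is no second observation. Of the dissociation and stress list, Junb, Jund, Ier2 and Hsp90aa1 were past the fold upward in aerocyte-like cells, where 17.3% of all genes measured were. Junb and Jund were also past the fold upward in endothelial-like cells, while Ier2 and Hsp90aa1 were not among those named there. How many genes of the list were measured in aerocyte-like cells is not given, so the classes are not compared further on it. The haemoglobin mRNAs Hbb-bs and Hba-a1 were past the fold upward as well. The free-RNA list stood at 104 and 1206 CPM.

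**Figure D2:**
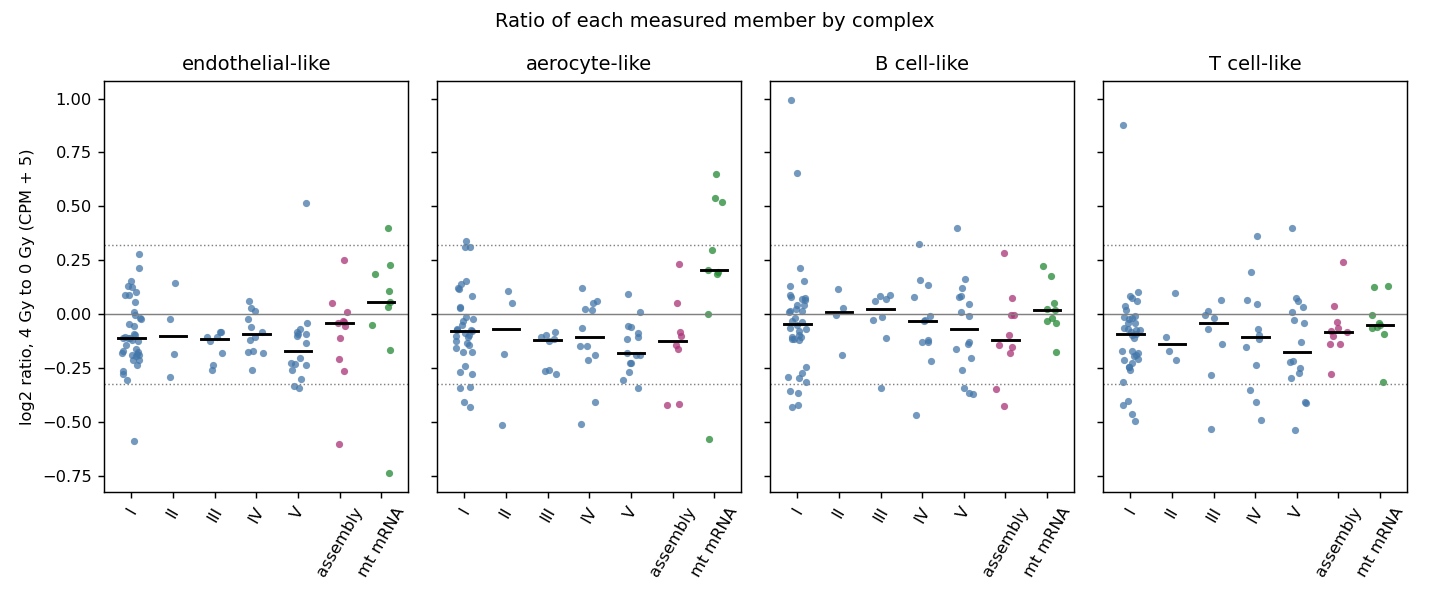
Log2 ratio of 4 Gy to 0 Gy, on CPM + 5, of each member with at least 100 UMIs in 4 classes: nuclear subunits by complex (blue), assembly factors (purple) and mitochondrial mRNAs (green). Bars are medians and dotted lines mark the set fold. The nuclear points lie mostly just below 0 in the CD45-negative classes, and the lowest green point there is mt-Nd4l.

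In B-cell-like cells the nuclear sum was 12667 CPM at 0 Gy and 12354 CPM at 4 Gy, a ratio of 0.975 (0.967 to 0.984), and 53 of 88 measured members were below 1 (39.6% of all genes measured). More members than in endothelial-like cells were past the fold, in both directions. They were 4 upward and 11 downward, beside 15.6% and 6.21% of all genes measured. Atp5o, the stalk subunit of ATP synthase that confers sensitivity to oligomycin, was at 84.8 and 112 CPM (ratio 1.32, 1.19 to 1.46). Cox7c, a small subunit of complex IV, was at 98.4 and 124 CPM (1.255, 1.14 to 1.38). Ndufs3 was at 11.9 and 18.7 CPM (1.57, 1.21 to 2.06) and Ndufs5 at 4.42 and 8.82 CPM (1.99, 1.31 to 3.10), both on few UMIs. Ndufaf7 (1.22) and Ndufs1 (1.16) came next. Downward, Cox6c2 was at 126 and 90.9 CPM (0.723), Ndufb2 at 67.9 and 50.6 CPM (0.746), and Atp5mpl and Ndufa3 at 0.775 each. Ndufa11b (0.743) and Sdhaf3 (0.745) had intervals that reached past 1. Cox6c2 and Ndufa11b are near copies of Cox6c and Ndufa11 (96.8% identical over 126 aligned bases and 93.9% over 313), so how reads were split between the copies is uncertain.

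T-cell-like cells had 15103 CPM at 0 Gy and 14127 CPM at 4 Gy, a ratio of 0.935 (0.927 to 0.944), with 66 of 87 measured members below 1 (53.7% of all genes measured). Past the fold were 3 upward and 11 downward, beside 10.3% and 10.8% of all genes measured. Upward were Ndufs3 (11.5 and 21.2 CPM, ratio 1.84, 1.36 to 2.51), Atp5o (101 and 133 CPM, 1.32, 1.19 to 1.47) and Cox7c (104 and 134 CPM, 1.29, 1.16 to 1.43). Ndufaf1 (1.18), Cox7a2l (1.15) and Ndufs7 (1.07) did not pass it. The lowest were Atp5md (65.0 and 44.8 CPM, 0.689, 0.592 to 0.802) and Uqcrb, a subunit of complex III (154 and 106 CPM, 0.691, 0.626 to 0.762). Ndufa12 (0.710), Cox6c2 (0.710), Ndufa11b (0.725) and Ndufa1 (0.746) stood above them. By its nuclear sum complex V was the lowest (0.919) and complex IV the highest (0.961). The list of markers of free RNA from other cells stood at 150 CPM at 0 Gy and 888 CPM at 4 Gy in T-cell-like cells. Whether these UMIs were free RNA or came from second cells was not tested. Median depth of the T-cell-like cells was 3994 UMIs at 0 Gy and 3214 UMIs at 4 Gy.

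Some members lay on the same side of 1 in every CD45-positive class. Of the 62 nuclear members measured in all 8 classes, 5 were above 1 in each (8.06%) and 6 below (9.68%), beside 8.04% and 9.86% of the 1481 genes so measured, so that the members had no more such genes than the rest. The 5 were Atp5o, Cox7c, Atp5f1, Ndufa11 and Cox4i1, and the 6 were Atp5mpl, Cox6c2, Uqcrb, Atp5h, Atp5j2 and Ndufa2. Atp5o was above 1 in 8 of 8 classes (1.12 to 1.54) and Cox7c in 8 of 8 (1.07 to 1.63), whereas in both CD45-negative classes they were below 1 (0.878 and 0.937 for Atp5o, 0.755 and 0.888 for Cox7c), as were Atp5f1 and Ndufa11. Atp5mpl ranged from 0.686 to 0.929 and Cox6c2 from 0.648 to 0.882. Cox6c, of which Cox6c2 is a near copy, was above 1 in 7 of 8 classes (0.973 to 1.23). Ndufa11b, the near copy of Ndufa11, was below 1 in the 2 classes that measured it (0.725 and 0.743). How reads were split between such copies is uncertain, so these genes are not read as changes of a subunit. Uqcrb ranged from 0.677 to 0.9995, Ndufb2 from 0.643 to 0.958 in the 7 classes that measured it, and Ndufa12 from 0.636 to 0.816 in 5. These 8 classes share the same pair of libraries and do not count as 8 observations. Beside them, the cytosolic ribosomal proteins of the same cells also split, with 21 past the fold upward and 17 downward of 88 measured in B-cell-like cells, and 25 and 14 of 87 in T-cell-like cells. For all genes measured these shares were 15.6% and 6.21%, and 10.3% and 10.8%. Exons of Atp5o overlap genes on the other strand over 35.6% of their length. In the 36 and 40 endothelial-like cells of the CD45-positive libraries Atp5o stood at 3.06 (1.10 to 9.72, on 6 and 14 UMIs) and Cox7c at 1.31 (0.351 to 4.91). In interstitial-macrophage-like cells of the CD45-negative libraries they stood at 0.829 (0.229 to 2.53) and 0.249 (0.0277 to 1.06). With 1 library per dose and sort, dose and library cannot be told apart.

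In the other 6 CD45-positive classes the nuclear sums stood between 0.914 and 1.06. Natural-killer-like cells were at 0.914 (0.899 to 0.928), with 1 member past the fold upward and 15 downward of 81, beside 18.5% and 10% of all genes measured. Their lowest were Ndufaf7 (0.597), Ndufa12 (0.636) and Ndufb2 (0.643), and their highest Atp5o (1.253), Ndufa11 (1.22) and Ndufv1 (1.19). Classical-monocyte-like cells were at 0.977 and conventional-dendritic-type-2-like cells at 0.992 (0.968 to 1.016). Above 1 were neutrophil-like (1.03), interstitial-macrophage-like (1.05) and nonclassical-monocyte-like cells (1.06). In neutrophil-like cells 6 members were past the fold upward and 3 downward of 67 (15.4% and 17.1% of all genes measured), with Atp5j at 157 and 243 CPM (1.55, 1.27 to 1.91) the highest and Uqcrb at 0.700 the lowest. Nonclassical-monocyte-like cells had 9 upward and 6 downward of 63 (14.1% and 14.3%), led by Cox7c at 1.63, Ndufa6 at 1.49 and Uqcrc1, a core subunit of complex III, at 1.44. Cox6c2 (0.648), Ndufb2 (0.650) and Uqcrc2 (0.675) were lowest. Classical-monocyte-like cells had 4 and 6 of 74 (17.4% and 11.4%), with Uqcrc1 at 1.41, Atp5o at 1.31 and Ndufv1 at 1.28 against Atp5mpl at 0.726, Ndufa3 at 0.733 and Ndufaf8 at 0.757. Interstitial-macrophage-like cells had 6 and 6 of 75 (19% and 14%), with Atp5o at 1.54, Cox7c at 1.49 and Ndufs4 at 1.35 against Uqcrb at 0.677, Ndufb6 at 0.691 and Ndufa12 at 0.732. Conventional-dendritic-type-2-like cells had 4 and 6 of 70 (18.7% and 15.9%), with Sdha at 1.39, Ndufa9 at 1.35 and Ndufs4 at 1.28 against Cox6c2 at 0.692, Cox5b at 0.730 and Sdhd at 0.764. In these 5 smaller classes the shares past the fold lay near or below those of all genes measured, and intervals were wide.

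The mitochondrial mRNAs were nearer to 1 than the nuclear members in endothelial-like, B-cell-like and T-cell-like cells, and above 1 in aerocyte-like cells. Their sum in endothelial-like cells was 9925 CPM at 0 Gy and 10038 CPM at 4 Gy (1.011, 1.002 to 1.021), and the ratio was 0.983 with another scaling, so that it has no fixed direction. In aerocyte-like cells it was 8123 and 9310 CPM (1.146, 1.120 to 1.173). In B-cell-like cells it was 18356 and 18490 CPM (1.007), again without a fixed direction (0.967 with the other scaling), and in T-cell-like cells 15965 and 15384 CPM (0.964, 0.955 to 0.972). Per nuclear member UMI, mitochondrial mRNA UMIs stood at 0.590 and 0.646 in endothelial-like cells (ratio 1.096, 1.085 to 1.106) and at 0.461 and 0.566 in aerocyte-like cells (1.227, 1.199 to 1.256). This balance does not depend on the scaling of the library. It was 1.033 in B-cell-like, 1.030 in T-cell-like, 1.126 in natural-killer-like and 1.121 in classical-monocyte-like cells, and 0.901 in nonclassical-monocyte-like and 0.946 in interstitial-macrophage-like cells. Neutrophil-like cells (0.986, 0.953 to 1.021) and conventional-dendritic-type-2-like cells (1.005, 0.972 to 1.039) were within counting error of 1.

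Behind the near-constant sum of endothelial-like cells, single mitochondrial mRNAs of complex I moved apart. mt-Nd4l was at 1317 CPM at 0 Gy and 789 CPM at 4 Gy (ratio 0.599, 0.581 to 0.618), while mt-Nd2 was at 1076 and 1421 CPM (1.321, 1.286 to 1.357). mt-Nd6, the one message of the light strand, was at 113 and 133 CPM (1.17, 1.07 to 1.28), mt-Nd1 at 768 and 875 CPM (1.14, 1.10 to 1.18), mt-Nd3 at 258 and 278 CPM (1.08), mt-Nd4 at 1664 and 1701 CPM (1.02) and mt-Nd5 at 329 and 317 CPM (0.964). mt-Cytb of complex III was at 4015 and 4181 CPM (1.04) and mt-Co1 of complex IV at 385 and 344 CPM (0.892, 0.849 to 0.939). Without mt-Nd4l, the complex I mRNAs were at a ratio of 1.12 and not at 0.998. Aerocyte-like cells showed the same parting: mt-Nd4l at 1040 and 696 CPM (0.669, 0.621 to 0.722), mt-Nd2 at 1006 and 1444 CPM (1.44), mt-Nd1 at 592 and 859 CPM (1.45) and mt-Nd6 at 87.4 and 137 CPM (1.57, 1.27 to 1.95). mt-Nd3 (1.23), mt-Cytb (1.15), mt-Co1 (1.15), mt-Nd4 (1.14) and mt-Nd5 (1.0001) lay between. mt-Nd4l and mt-Nd4 lie on 1 message, yet their ratios differed in both classes.

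**Figure D3:**
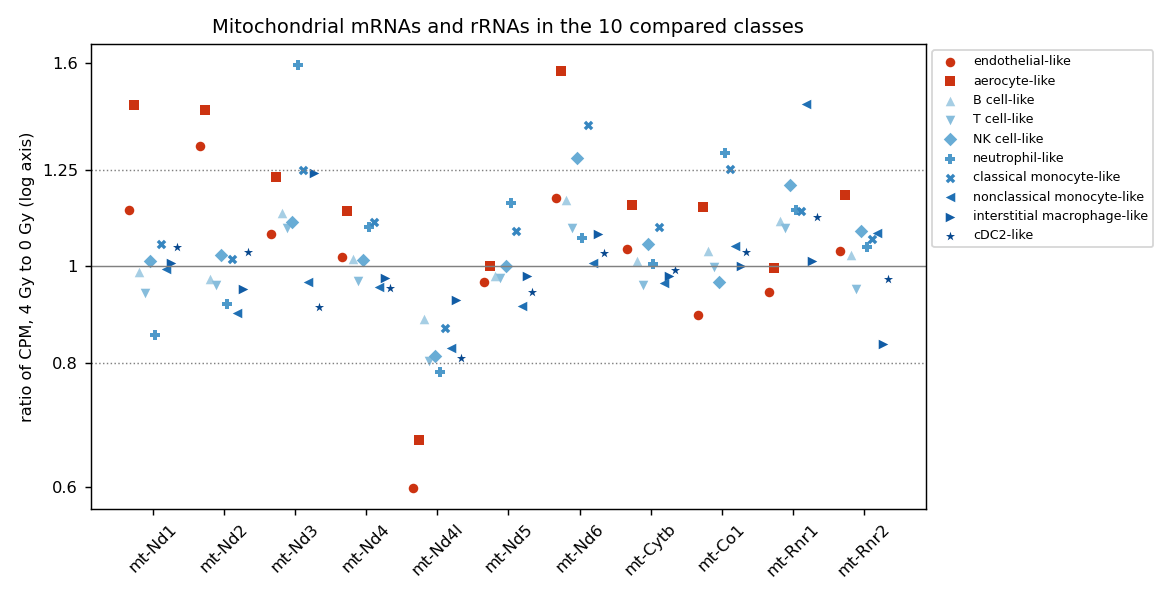
Ratio of 4 Gy to 0 Gy (log axis) of 9 mitochondrial mRNAs and both mitochondrial rRNAs in the 10 compared classes, CD45-negative classes in red and CD45-positive ones in blue; dotted lines mark 0.8 and its inverse. mt-Nd4l lies below 1 in every class and lowest in the red points, and the mt-Nd2 points of both red classes lie above the upper dotted line.

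The mitochondrial mRNAs of lymphocytes differed less between doses. In B-cell-like cells the 9 measured ones ranged from 0.884 for mt-Nd4l (356 and 315 CPM) to 1.17 for mt-Nd6 (573 and 669 CPM), with mt-Nd2 at 0.972, mt-Nd5 at 0.977, mt-Nd1 at 0.986, mt-Cytb at 1.01, mt-Nd4 at 1.02, mt-Co1 at 1.04 and mt-Nd3 at 1.13. In T-cell-like cells they ranged from 0.803 for mt-Nd4l (314 and 252 CPM) to 1.09 for mt-Nd3 and mt-Nd6. Other leukocytes had single mRNAs past the fold. In neutrophil-like cells these were mt-Nd3 at 189 and 302 CPM (1.59, 1.33 to 1.92) and mt-Co1 at 326 and 423 CPM (1.30) upward, and mt-Nd4l at 0.784 (0.601 to 1.028) downward. In classical-monocyte-like cells they were mt-Nd6 at 392 and 543 CPM (1.39, 1.23 to 1.57) and mt-Co1 at 582 and 729 CPM (1.252), and in natural-killer-like cells mt-Nd6 at 238 and 306 CPM (1.28). Over all 10 classes, mt-Nd4l was below 1 (0.599 to 0.924) and mt-Nd6 above 1 (1.01 to 1.57) in each. Classes of a sort share the same pair of libraries and do not count as separate observations. Of all genes measured in all 8 CD45-positive classes, 8.04% were above 1 in each and 9.86% below. Some intervals reached past 1, as for mt-Nd6 in nonclassical-monocyte-like cells (0.852 to 1.196) and mt-Nd4l in interstitial-macrophage-like cells (0.767 to 1.117). The rRNAs stood at 0.941 (mt-Rnr1) and 1.04 (mt-Rnr2) in endothelial-like cells, 1.11 and 1.03 in B-cell-like cells, and 1.09 and 0.950 in T-cell-like cells. mt-Co3 was measured in 0 classes, with 17 and 24 UMIs in B-cell-like cells.

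The level of mt-Nd4l lay nearer to that of the library than to that of the class for most cells found in the other sort. Cells whose markers belong to the other sort were present in each library, 34 to 73 of them, and show this directly. B-cell-like cells in the CD45-negative library of 0 Gy (24 cells) held 1172 CPM (903 to 1497) of mt-Nd4l, close to the 1317 CPM of the endothelial-like cells around them, against 356 CPM for the class in its own sort. Interstitial-macrophage-like cells held 917 CPM (712 to 1163; 12 cells) in the CD45-negative library. In the CD45-positive library the same class held 254 CPM. The reverse was seen in the CD45-positive library of 0 Gy, where endothelial-like cells (36 cells) held 610 CPM (431 to 837), and tumour-epithelial-like cells (12 cells) 164 CPM (53.3 to 383) against 879 CPM in their own sort. mt-Nd2 ran the other way: 1246 CPM in B-cell-like cells of the CD45-negative library and 3319 CPM in their own sort, 3817 CPM in endothelial-like cells of the CD45-positive library and 1076 CPM in their own. An exception were the 10 aerocyte-like cells of the CD45-positive library at 4 Gy, with 746 CPM (397 to 1276) of mt-Nd4l and 696 CPM in their own sort. Their mt-Nd2, at 3559 CPM (2729 to 4562) against 1444 CPM, was no exception. Tumour-epithelial-like cells of the CD45-positive library held 1511 CPM (1107 to 2016) of mt-Nd2 at 0 Gy, against 728 CPM in their own sort. At 4 Gy the 12 such cells of the CD45-positive library held 311 CPM (134 to 612), on 8 UMIs. Their mt-Nd4l at 0 Gy rests on 5 UMIs. In the own sort, 41 of 78 cells of this class at 0 Gy were nearly without mitochondrial mRNA.

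The sum of the mitochondrial mRNAs differed between the sorts more than that of the nuclear members. Endothelial-like cells held 9925 CPM of mitochondrial mRNAs in their own sort and 21589 CPM (20451 to 22774) among CD45-positive cells at 0 Gy, with nuclear members at 16826 and 17226 CPM. B-cell-like cells held 18356 CPM of mitochondrial mRNAs in their own sort and 11669 CPM (10780 to 12611) among CD45-negative cells, with nuclear members at 12667 and 15150 CPM. Interstitial-macrophage-like cells were at 14685 and 9578 CPM of mitochondrial mRNAs, and at 18096 and 25430 CPM of nuclear members. Between doses, mt-Nd4l of interstitial-macrophage-like cells stood at a ratio of 0.585 (0.337 to 0.975) within the CD45-negative libraries and at 0.924 within the CD45-positive ones. Endothelial-like cells within the CD45-positive libraries were at 0.518 (0.265 to 0.964). For mt-Nd2 these endothelial-like cells stood at 0.810 (0.655 to 0.999), on the other side of 1 from the class in its own sort, and the interstitial-macrophage-like cells within the CD45-negative libraries at 1.20 (0.826 to 1.74). Cells of the other sort are few and shallow, and may hold free RNA or a second cell; this was not tested. For the mitochondrial mRNAs, too, dose and library cannot be told apart.

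**Figure D4:**
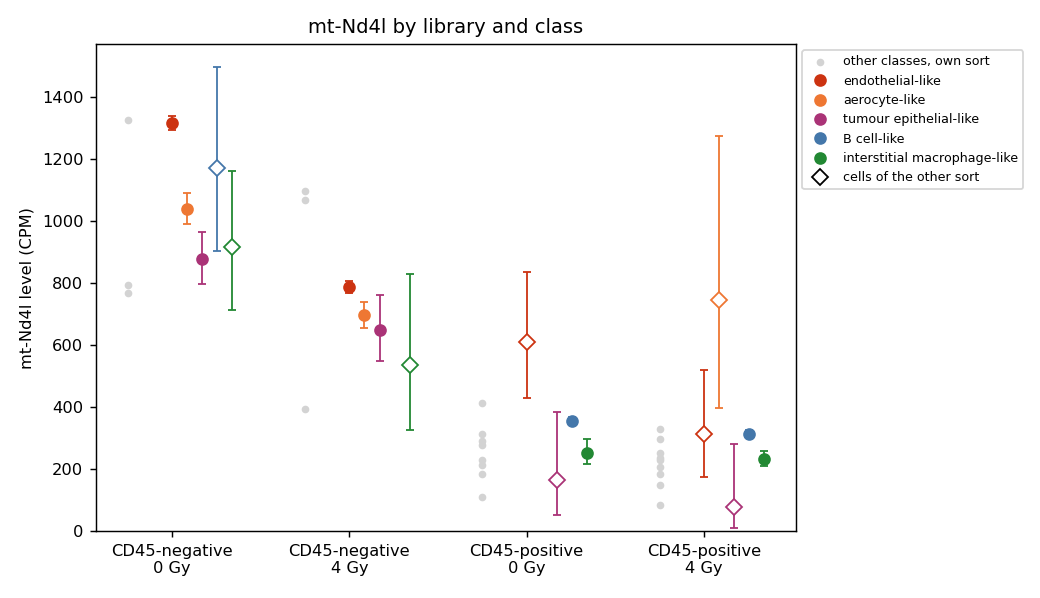
mt-Nd4l level in CPM by library, with 95% Poisson intervals: filled circles are classes in their own sort, open diamonds cells of a class found in the library of the other sort (10 or more cells), grey points the remaining classes. The B-cell-like diamond at 0 Gy stands at 1172 CPM among the CD45-negative cells, and the B-cell-like circles at 356 and 315 CPM.

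Cells nearly without mitochondrial mRNA were frequent in 2 classes. A bound of 0.1% of a cell's UMIs was set after the values were seen. In tumour-epithelial-like cells, 41 of 78 at 0 Gy (52.6%, exact interval 40.9 to 64.0) and 15 of 32 at 4 Gy (46.9%, 29.1 to 65.3) lay below it. In neutrophil-like cells these were 119 of 272 (43.8%, 37.8 to 49.9) and 217 of 760 (28.6%, 25.4 to 31.9). Endothelial-like cells had 19 of 4631 (0.410%) and 15 of 3455 (0.434%), and B-cell-like cells 2 of 2216 and 0 of 3295. After thinning to 1000 UMIs, with shallower cells left out (17 and 6 tumour-epithelial-like, 9 and 53 neutrophil-like), cells with no mitochondrial mRNA UMI were 23 of 61 (37.7%) and 10 of 26 (38.5%) of the tumour-epithelial-like, and 82 of 263 (31.2%) and 131 of 707 (18.5%) of the neutrophil-like cells. The endothelial-like share was 0.236% and 0.334%.

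The low cells of these classes differed in what else they held. In tumour-epithelial-like cells at 0 Gy the median mitochondrial rRNA share was 0% in the low cells and 0.708% in the rest, while the median share of the nuclear members was 3.13% and 3.29% and that of cytosolic ribosomal protein mRNAs 16.9% and 16.1%. In neutrophil-like cells at 0 Gy the median mitochondrial rRNA share was 0.899% in the low cells and 1.003% in the rest, and the nuclear members took 0.704% and 0.934%. The low tumour-epithelial-like cells were shallower, with a median of 1444 UMIs against 8724, and 40 of the 78 cells lay within 1 marker of the gate. The low neutrophil-like cells had 1835 UMIs against 2250. Other classes reached at most 16.7% (4 of 24 alveolar-macrophage-like cells at 4 Gy, 4.74 to 37.4). Summed levels of tumour-epithelial-like cells therefore average cells with and without mitochondrial RNA.

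**Figure D5:**
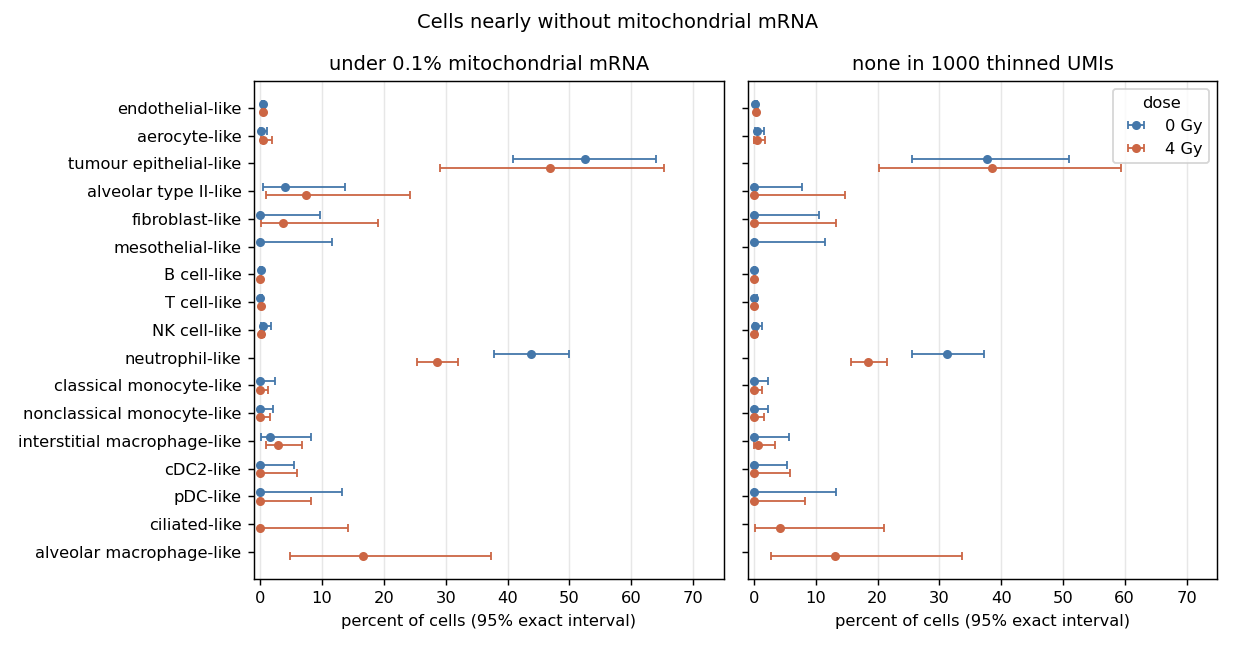
Percent of cells under 0.1% mitochondrial mRNA (left) and, after thinning to 1000 UMIs per cell, with no mitochondrial mRNA UMI (right), by class and dose, with 95% exact binomial intervals. Tumour-epithelial-like and neutrophil-like cells stand apart, at 52.6% and 43.8% at 0 Gy in the left panel.

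Subunits with tissue forms marked small classes. Cox6a2, the form of the complex IV subunit 6a known from heart and skeletal muscle, had 1771 CPM (1591 to 1966) in plasmacytoid-dendritic-like cells at 0 Gy and 1348 CPM (1211 to 1496) at 4 Gy, on 352 UMIs in each library, with a UMI in 26 of 26 and 39 of 43 cells. Alveolar-type-II-like cells had 211 CPM (29 of 50 cells) and 95.2 CPM (10 of 27 cells). In B-cell-like cells it was found in 4 of 2216 cells. The 38 UMIs of endothelial-like cells at 4 Gy sat in 4 cells, 30 of them in 1 cell. Cox6a1, the form of most tissues, was in the same classes at 0 Gy at 247 and 177 CPM.

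Cox4i2, a form of a complex IV subunit, and Ndufa4l2, counted here under complex I by its name as Ndufa4 is, are both known for induction by low oxygen, and were highest in pericyte-and-smooth-muscle-like cells. This class had 19 and 11 cells, under the minimum of 20 for a level, and was looked at after its values were seen. Cox4i2 stood there at 1325 CPM (1063 to 1632; 13 of 19 cells) at 0 Gy and 328 CPM (201 to 507; 9 of 11 cells) at 4 Gy, and in endothelial-like cells at 5.93 and 4.05 CPM, with a UMI in 0.972% and 0.868% of cells. Ndufa4l2 stood at 452 CPM (305 to 645) and 230 CPM (126 to 386), and in endothelial-like cells at 3.73 and 3.16 CPM. The 249 CPM of Ndufa4l2 in fibroblast-like cells at 0 Gy came from 6 of 36 cells, of which 2 held 36 and 29 of the 73 UMIs. Median depth of the pericyte-and-smooth-muscle-like cells was 2919 UMIs at 0 Gy and 6161 at 4 Gy, so that shares of cells are not compared. Cox6b2, known from testis, reached 122 CPM (72.2 to 193) in the 24 alveolar-macrophage-like cells at 4 Gy. Cox7a1 had at most 26.7 CPM (6 UMIs, tumour-epithelial-like cells at 4 Gy) in classes of 20 or more cells. The widely expressed forms Cox4i1, Cox6b1, Cox7a2 and Cox8a were present in every class, from 484, 274, 225 and 603 CPM in their lowest class at 0 Gy to 1451, 679, 711 and 2032 CPM in their highest.

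Over the 15 classes with a level at 0 Gy, the median range of log2(CPM + 5) was 1.90 for the 93 nuclear members with at least 100 UMIs there and 1.91 for 9 mitochondrial mRNAs. These classes come from both sorts, so that the ranges carry the difference between libraries as well as between cells. The widest after Cox6a2 (8.47) and Ndufa4l2 (5.67) was mt-Nd4l (3.53), from 110 CPM in neutrophil-like to 1327 CPM in alveolar-type-II-like cells. These ends lie in different sorts. For most cells found in the other sort the mt-Nd4l level lay nearer to the library than to the class, so its range is not read as a trait of cell types. Ndufa5, Ndufv1, Ndufa4, Atp5md and Atp5g3 followed with 3.45 to 2.92. Neutrophil-like cells were lowest for 4 of these 5: Ndufa5 (22.1 CPM), Ndufv1 (16.9 CPM), Ndufa4 (119 CPM) and Atp5g3 (49.3 CPM). Tumour-epithelial-like cells were highest for Ndufv1, the flavoprotein that binds NADH (230 CPM), Atp5md (421 CPM) and Atp5g3, a ring subunit of ATP synthase (406 CPM). Mesothelial-like cells were highest for Ndufa5 (290 CPM) and Ndufa4 (1104 CPM). Atp5md was the 1 of the 118 members without a match in GENCODE M21.

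The 97 nuclear members matched in GENCODE M21 (GRCm38) lie on 19 chromosomes, at most 10 of them on any, with 3 on the X chromosome. Atp5k lies at chr5:108433244-108434448 and Atp5o at chr16:91925214-91931687, both on the minus strand. Members with an NRF1 match (22 measured in endothelial-like cells) had a median log2 ratio of -0.18, and those without (51) one of -0.11. The order was the same in aerocyte-like (-0.17 and -0.10) and B-cell-like cells (-0.11 and -0.03). In T-cell-like cells it was the reverse, with -0.06 (20) and -0.10 (51).

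Genes around the chain were followed through lists, whose counts past the fold are to be read against the shares of all genes measured: 14.6% upward and 8.56% downward in endothelial-like, 17.3% and 11.8% in aerocyte-like, 15.6% and 6.21% in B-cell-like and 10.3% and 10.8% in T-cell-like cells. In endothelial-like cells the lists of mitochondrial DNA expression, biogenesis and assembly had upward shares near or below the first of these, and their genes are named as values only. The electron carriers and exchangers of endothelial-like cells (Slc25a4, Slc25a5 and Vdac1 among them, which pass nucleotides and ions through the membranes) stood at 2599 and 2310 CPM (0.889), with 0 past the fold upward and 3 downward of 17 (Coq7, Vdac3 and Chchd3), and a median log2 of -0.17. Mitochondrial ribosomal proteins, which translate the mitochondrial mRNAs, had 1 upward and 4 downward of 75 and a median of -0.10, and proteasome subunits, taken for comparison as another set of small nuclear-coded proteins, 0 and 0 of 14 and -0.10. The nuclear members' median of -0.11 was thus near that of these lists. The enzymes of the tricarboxylic acid cycle, which feed complexes I and II, had 0 and 0 of 17 and -0.04. Factors of mitochondrial DNA expression had 2 upward (Polrmt, the mitochondrial RNA polymerase, and Lrpprc, which stabilises mitochondrial mRNAs) and 1 downward (Hsd17b10, a subunit of mitochondrial RNase P) of 17. Regulators of biogenesis had 1 upward (Nrf1) of 7, with a sum of 356 and 415 CPM. Glycolysis had 1 upward (Slc2a1) and 1 downward (Pfkp) of 11.

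In aerocyte-like cells electron carriers stood at 0.940 with 1 downward (Etfb) of 13, and 3 enzymes of the tricarboxylic acid cycle were downward (Idh3b, Idh2 and Pdha1) and 2 upward (Dlst and Suclg2) of 16. In B-cell-like cells Mterf3, Mterf4, Slirp, Trmt10c and Fastkd2, which act on mitochondrial transcripts, were past the fold downward and Elac2, which cuts transfer RNAs out of the precursor, upward, of 16 measured. In T-cell-like cells Slirp and Tfb2m were downward and Twnk and Elac2 upward, of 15. Cycs, which codes for cytochrome c, was downward in T-cell-like cells, as were Suclg2, Pdhb and 10.8% of all genes measured there. Cox17, which delivers copper to complex IV, was downward in B-cell-like and T-cell-like cells alike. Cycs, Suclg2, Pdhb and Cox17 are named as values only, without the counts of their lists. The counts of 16 and 15 stand beside 15.6% upward and 6.21% downward of all genes measured in B-cell-like cells. In T-cell-like cells these shares were 10.3% and 10.8%. Among assembly factors outside the rule, 4 of 28 were upward (Cox15, Uqcc1, Ttc19 and Atpaf1) and 3 downward (Cox16, Cox20 and Foxred1) in endothelial-like cells. These shares were not tested.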

How the data were processed

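Libraries of 10x Genomics 3′ chemistry were sequenced for 4 samples, 1 per dose and sort, each a pool of 4 mice. The submitters' processing notes list STAR, Partek and Seurat, and mm10 as build. No source used here gives their roles or versions. The authors deposited log2 values, 1 table per library. Read back as log2(CPM + 1), the CPM of each cell add up to 1000000, and 99.9993% to 99.9996% of values were whole multiples of the cell's smallest, within 0.02; whole UMI counts were worked out from this step. The plan named a count-based scaling tool as an alternative, but with log2 values the median of ratios was used. Doublets were scored with Scrublet (scanpy 1.11.5, random seed 0): an automatic threshold under 0.5% of barcodes was replaced by the highest scores up to 0.8% per 1000 cells (286, 149 and 235 removed in CD45-negative 0 Gy, CD45-negative 4 Gy and CD45-positive 0 Gy), and 608 (6.33%) were removed in CD45-positive 4 Gy. The highest mitochondrial share of a cell was 10.4% to 10.7%, before any filter used here.

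Cells were gated on 24 lists of at most 8 markers: at least 3 detected, and 2 more than the next lineage. UMIs were summed per class and library. Ratios carry exact conditional binomial intervals, levels Poisson ones and shares Clopper-Pearson ones (95%). Log2 ratios use CPM + 5. A floor for a count of 0 is 3 counts. With 1 library per group nothing was tested; the ratio interval was tested on simulated data. The NRF1 and YY1 motifs were shortened to these letters after longer forms had been searched. Genes were named by rule: the 6 highest and 6 lowest nuclear members in the 4 main classes, the 3 highest and lowest elsewhere, every mitochondrial mRNA, tissue forms, and the 8 widest ranges. 1 gene that this rule would name is not reported here. Members, lists and gates were chosen with earlier results of these data known. Positions are from GENCODE M21, promoters from RefSeq.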

Additional observations from a re-analysis of the deposited data

How the results depend on the processing

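The summed nuclear members stayed below 1 under each alternative run in the 4 main classes: 0.897 to 0.938 in endothelial-like, 0.927 to 0.954 in aerocyte-like, 0.937 to 0.976 in B-cell-like and 0.931 to 0.948 in T-cell-like cells. They moved by more than counting error with a mean over cells (0.938 endothelial-like, 0.946 B-cell-like), with the median of ratios as scaling (0.897 endothelial-like, 0.937 B-cell-like, 0.948 T-cell-like), with cells thinned to 1000 UMIs (0.954 aerocyte-like, 0.946 B-cell-like), with the stricter gate (0.967 B-cell-like) and in cells without a Lyve1 UMI (0.936 endothelial-like). The summed mitochondrial mRNAs stayed above 1 in aerocyte-like cells (1.116 with doublets kept, 1.216 without mt-Nd4l) and below 1 in T-cell-like cells (0.977 with the median of ratios). In endothelial-like cells they crossed 1: 0.972 with a mean over cells, 0.983 with the median of ratios, 0.999 in cells without a Lyve1 UMI and 1.074 without mt-Nd4l. In B-cell-like cells they were 0.967 with the median of ratios and 1.018 with all mt- columns.

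Counts of nuclear members past the fold were small and moved. In endothelial-like cells, upward 3 thinned, 0 with at least 400 UMIs, 0 with a fold of 1.5, 2 in cells with and 4 in cells without a Lyve1 UMI; downward 7 with the median of ratios, 2 with at least 400 UMIs and 2 with the fold of 1.5. In aerocyte-like cells, upward 3 thinned, 0 with doublets kept and 0 with the fold of 1.5; downward 6 with at least 400 UMIs and 0 with the fold of 1.5. In B-cell-like cells, upward 0 thinned, 2 with at least 400 UMIs and 2 with the fold of 1.5, downward 0 with that fold. In T-cell-like cells, upward 1 thinned and 1 with the fold of 1.5, downward 0. A higher minimum and a higher fold leave fewer genes to pass; the other causes were not tested. In all, 38 of 144 alternative values moved and 106 did not. The Lyve1 split, the sum without mt-Nd4l and the sum of all mt- columns were added after the data were seen. No paired analysis was possible because each dose and sort has 1 library and the labels give no shared replicate numbers. Depth limits the classes under 300 cells most: at 100 UMIs over both libraries a ratio at the fold lies within counting error.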
